A study of Mus musculus with 9 samples.

Results

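The genes described here are 9 genes that carry iron into the cell, store it, send it out or sense it: Tfrc, Slc11a2 and Steap3 (uptake), Fth1, Ftl1 and Ncoa4 (storage), Slc40a1 (export), and Aco1 and Ireb2 (sensing). They were chosen by symbol from a table of raw read counts of 55453 rows, and each of the 9 had a row. The counts come from RNA sequencing of ST2, a wild-type mouse bone marrow stromal cell line, and the title of the series names the engulfment of dying cells (efferocytosis), osteoblastic differentiation and mitochondrial remodelling. There were 9 libraries in 3 groups of 3. The unfed group was collected at 24 h. The fed 3 h and fed 24 h groups received human neutrophils in a 10-fold excess over ST2 cells for the time in their name. The neutrophils had spent 18 h or more in the freezer and carried a fluorescent stain (20 µM), and only ST2 cells with the stain of 1 whole neutrophil or more were sorted. No unfed library of 3 h was analysed, so at 3 h feeding and time cannot be told apart, and in both fed groups feeding and sorting cannot be told apart. Between the fed groups, time of feeding and time in culture differ together and cannot be told apart. The labels number the replicates without stating separate cultures, so p-values measure the spread between these libraries, which may be technical.

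Iron enters most cells bound to transferrin, which is taken into endosomes by its receptor, reduced there and carried into the cytosol, where ferritin cages hold what is not used and ferroportin is the exporter. When iron is scarce, the proteins encoded by Aco1 and Ireb2 bind short hairpins in mRNA called iron-responsive elements. A hairpin near the start of the message then blocks translation, and hairpins in the tail of the transferrin receptor message shield it from decay. In marrow, stroma shares its space with developing red cells and with macrophages that recycle iron from engulfed red cells.

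The hairpins are shown because several members are known to be controlled through such elements in their message. A search of the GRCm38 mouse genome with the GENCODE M21 annotation asked for a bulged C, 5 paired bases, the loop CAGTGN with no G at its last place, and the pairing strand, with G to T pairs allowed. It matched 22 of 21877 coding genes (0.101%) in a 5′ UTR and 99 (0.453%) in a 3′ UTR. Capitals mark the bulged C and the loop in each stretch of 29 bases. In the 5′ UTRs of Fth1 (chr19:9982732-9982760, plus strand), Ftl1 (chr7:45459779-45459807, minus strand) and Slc40a1 (chr1:45925465-45925493, minus strand) there was 1 match each:
Fth1: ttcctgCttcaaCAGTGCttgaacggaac
Ftl1: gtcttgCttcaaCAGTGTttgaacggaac
Slc40a1: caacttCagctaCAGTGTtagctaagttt
The 2 ferritin elements differed at 3 of 29 bases. Tfrc had 4 matches in its 3′ UTR on the plus strand, at chr16:32631219-32631247, chr16:32631598-32631626, chr16:32631663-32631691 and chr16:32631710-32631738, in this order:
Tfrc a: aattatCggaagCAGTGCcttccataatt
Tfrc b: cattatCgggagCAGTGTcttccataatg
Tfrc c: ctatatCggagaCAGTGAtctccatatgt
Tfrc d: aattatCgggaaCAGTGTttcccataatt
The matches lay in 4 of 5 annotated coding transcripts of Fth1, 1 of 2 of Ftl1 and 1 of 4 of Slc40a1. Each Tfrc match lay in 1 of 3. Counts per gene do not tell which transcripts were present. A count of mRNA does not read translation, so these libraries show only the message level of each gene.

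Total counts ran from 44442664 to 55971275 per library. Levels are CPM, counts relative to the library total scaled by TMM (trimmed mean of M values), with mean ± SD of 3 libraries. Differences are log2 fold changes from edgeR's quasi-likelihood test. Their standard error (SE) was derived as the size of the log2 fold change divided by the square root of the test's F statistic. Calls needed an adjusted p under 0.05 over the 13568 genes that passed a filter on low counts. Of the 9 members, 8 passed it and Slc40a1 did not. The summed level of 11 stromal markers was 27001 to 34991 CPM, although Thy1 was at 0 in the unfed and fed 24 h groups. Summed neutrophil markers (11 genes) were at 2.32 to 2.95 CPM in unfed, 0.796 to 1.48 in fed 3 h and 3.41 to 4.31 in fed 24 h libraries, with S100a9 and Ngp at 0 throughout. These are rows of mouse genes and the fed neutrophils were human, so the sums do not measure how much neutrophil RNA was present. Summed macrophage markers (8 genes) were at 23.3 to 25.4, 27.8 to 28.8 and 24.7 to 28.1 CPM, with Adgre1, Marco and C1qa at 0, and erythroid markers stayed at or under 0.360 CPM. The mitochondrial share of counts was 1.56 ± 0.0711% (unfed), 1.40 ± 0.248% (fed 3 h) and 1.95 ± 0.233% (fed 24 h). Gm42418 and Gm26917, which overlap ribosomal RNA sequence, took 0.0904% to 0.115% of the counts in unfed, 0.0927% to 0.249% in fed 3 h (the highest being the third library) and 0.201% to 0.350% in fed 24 h libraries. The part of these values in the results was not tested. In a line grown in culture as in other bulk samples, fewer cells expressing a gene and less of its RNA per cell cannot be told apart.

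The first comparison asks how these genes stood in cells sorted for uptake at 24 h against unfed cells of the same time. Tfrc, Ftl1, Slc11a2 and Aco1 fell and no member rose, so 4 of the 8 tested members were called, where 30.8% of all tested genes were (14.9% higher, 15.9% lower). At 3 h the members split: Tfrc and Ftl1 rose, and Fth1, Aco1, Steap3 and Ncoa4 fell. These are 6 of 8, where 50.6% of all genes were called, with 2 higher (25.1% of all genes) and 4 lower (25.5%). Between 3 h and 24 h, Tfrc, Ftl1 and Slc11a2 fell and Fth1, Steap3 and Aco1 rose, again 6 of 8 with 3 in each direction, where 60.9% of all genes were called (30.8% higher, 30.2% lower). In each comparison the libraries of both groups were fully separated for the same number of members as were called (4, 6 and 6 of 8), against 43.2%, 58.2% and 65.9% of all genes. The 0 members higher at 24 h than in unfed cells was also 0 at an unadjusted p under 0.05 in edgeR, by DESeq2 and by limma-voom. The median log2 difference of the 8 members was -0.10, -0.11 and 0.03 in the 3 comparisons, and that of all genes was 0.00, -0.01 and 0.00. The comparisons share libraries, so they are not independent of each other.

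**Figure D1:**
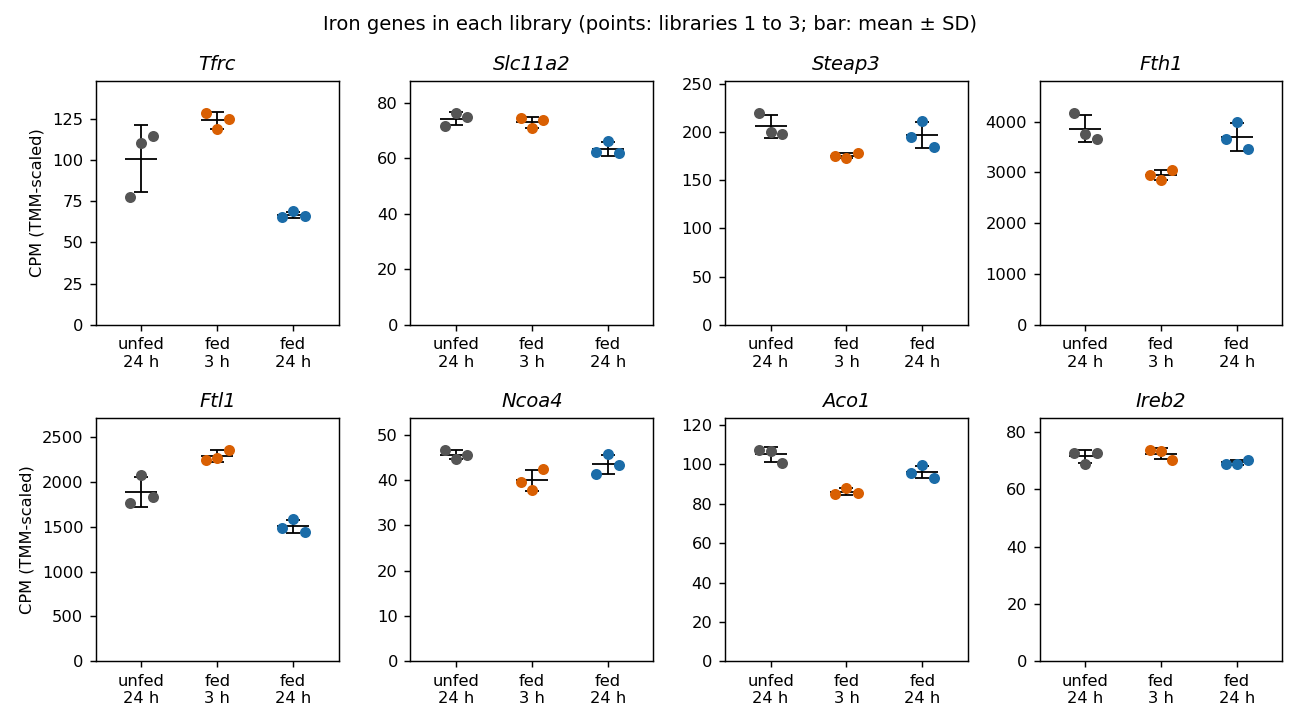
CPM of the 8 tested members in each of the 9 libraries (points) with the mean and SD of each group of 3 (bars), 1 panel per gene with its own axis. Tfrc and Ftl1 are highest in the fed 3 h libraries and lowest in the fed 24 h libraries, while Fth1 is lowest in the fed 3 h libraries.

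Transferrin receptor 1, encoded by Tfrc (chr16:32608920-32632794, plus strand), is the main route of transferrin-bound iron into cells. It stood at 77.3, 111 and 115 CPM without feeding, at 129, 119 and 125 after 3 h and at 65.2, 69.0 and 65.9 after 24 h. The 3 groups did not overlap, and the unfed group was the most spread, with its first library well under the others. Tfrc was lower at 24 h than at 3 h by a log2 difference of -0.90 (SE 0.101, edgeR adjusted p = 1.41e-06), which is 0.538 times the level at 3 h and the largest change among the tested members. Against unfed cells it fell at 24 h to 0.662 times (log2 -0.60, SE 0.101, edgeR adjusted p = 0.000533). Its rise at 3 h was smaller, with a log2 difference of 0.30 (SE 0.0993, edgeR adjusted p = 0.0195). That rise is less firm than the falls, since without the first unfed library it was 0.14, still called (edgeR adjusted p = 0.0209), without the first fed 3 h library its adjusted p was 0.0654, and the Wald test of DESeq2 gave 0.0755.

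The divalent metal transporter encoded by Slc11a2 (chr15:100387898-100425072, minus strand) moves ferrous iron out of the endosome. Its levels were 71.5, 76.3 and 74.8 CPM unfed, 74.3, 70.7 and 73.7 CPM fed 3 h, and 62.1, 66.0 and 61.7 CPM fed 24 h. Only the fed 24 h libraries stood apart, all under those of both other groups. Slc11a2 fell at 24 h by a log2 difference of -0.23 against unfed cells (SE 0.0454, edgeR adjusted p = 0.00157) and of -0.20 against 3 h (SE 0.0454, edgeR adjusted p = 0.00106). Between 3 h and unfed cells the difference was -0.03 (SE 0.0453, edgeR adjusted p = 0.663). Slc11a2 is also known for an iron-responsive element, in the 3′ UTR of some of its transcripts, but the strict pattern searched here had no match in its annotated UTRs. The search therefore does not list every known element.

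Steap3 (chr1:120190757-120272705, minus strand) encodes an endosomal ferrireductase, the enzyme that turns ferric into ferrous iron after transferrin has let it go. It was measured at 220, 200 and 198 CPM in unfed, 176, 173 and 178 CPM in fed 3 h and 194, 211 and 185 CPM in fed 24 h libraries. The fed 3 h libraries were the lowest, below all of the others, and the unfed and fed 24 h libraries overlapped. Steap3 fell at 3 h (log2 -0.23, SE 0.0534, edgeR adjusted p = 0.00207) and was higher again at 24 h than at 3 h (log2 0.16, SE 0.0533, edgeR adjusted p = 0.0140). The later rise was lost without the second fed 24 h library (log2 0.11, edgeR adjusted p = 0.0804) and without the second fed 3 h library (log2 0.15, adjusted p = 0.0515). Among the 3 uptake genes, the fed 3 h libraries were thus the highest for Tfrc and the lowest for Steap3, and the fed 24 h libraries were the lowest for Slc11a2.

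The 2 ferritin subunits moved in opposite directions at 3 h. Fth1 (chr19:9980598-9985098, plus strand) encodes the heavy chain, which oxidises iron as it enters the cage, and Ftl1 (chr7:45457944-45459884, minus strand) encodes the light chain, which favours the deposition of iron inside it. Together they took at most 0.602% of the counts of a library, and Fth1 ranked 15 to 22 among all genes by CPM.

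Fth1 was at 4172, 3760 and 3656 CPM in unfed, 2952, 2853 and 3053 CPM in fed 3 h and 3657, 3990 and 3451 CPM in fed 24 h libraries. All fed 3 h libraries lay below all others, and the unfed and fed 24 h libraries overlapped. Fth1 fell at 3 h to 0.764 times the unfed level (log2 -0.39, SE 0.0601, edgeR adjusted p = 6.70e-05) and was higher at 24 h than at 3 h (log2 0.33, SE 0.0601, edgeR adjusted p = 0.000213). At 24 h it differed from unfed cells by -0.06 (SE 0.0600, edgeR adjusted p = 0.460).

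Ftl1 followed the other course, with 1764, 2079 and 1824 CPM in unfed, 2238, 2261 and 2357 CPM in fed 3 h and 1489, 1584 and 1437 CPM in fed 24 h libraries. The 3 groups did not overlap, and the order was that of Tfrc, with fed 3 h above unfed above fed 24 h. The rise at 3 h was 1.21-fold (log2 0.27, SE 0.0589, edgeR adjusted p = 0.00111). By 24 h Ftl1 was at 0.796 times the unfed level (log2 -0.33, SE 0.0590, edgeR adjusted p = 0.000802) and at 0.658 times the 3 h level (log2 -0.60, SE 0.0591, edgeR adjusted p = 3.09e-07). A pseudogene with a near-identical copy, Ftl1-ps1, had 0.197% to 0.269% of the Ftl1 counts. How reads that match several places were counted is not given in the sources used here, and the table has no human gene rows, so reads of human ferritin mRNA counted on the mouse genes could not be separated.

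Ncoa4 (chr14:32159865-32179855, plus strand) encodes the receptor that delivers ferritin to the lysosome, where its iron is released. Levels were 46.8, 44.7 and 45.6 CPM in unfed, 39.6, 37.9 and 42.4 CPM in fed 3 h and 41.4, 45.7 and 43.3 CPM in fed 24 h libraries. The fed 3 h libraries were below the unfed ones, and the fed 24 h libraries overlapped both groups. Ncoa4 fell at 3 h (log2 -0.19, SE 0.0533, edgeR adjusted p = 0.00701). The later differences were not called, at -0.07 for 24 h against unfed cells (SE 0.0528, edgeR adjusted p = 0.337) and 0.12 for 24 h against 3 h (SE 0.0531, edgeR adjusted p = 0.0589). The last of these passed the threshold in 4 of the 17 alternatives.

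Ferroportin, the product of Slc40a1 (chr1:45908068-45926523, minus strand) and the known exporter of iron from cells, was almost without reads. The raw counts were 1, 0 and 4 (unfed), 2, 1 and 2 (fed 3 h) and 1, 0 and 3 (fed 24 h). The group totals of 5, 5 and 4 counts had 95% Poisson intervals of 1.62 to 11.7, 1.62 to 11.7 and 1.09 to 10.2, which cover counting error only. No difference in Slc40a1 was detectable at this depth, and no fold change is given.

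Of the 2 sensors, Aco1 changed in all 3 comparisons and no difference in Ireb2 passed the test. Aco1 (chr4:40143081-40198338, plus strand) encodes iron regulatory protein 1, which is a cytosolic aconitase when it holds an iron-sulfur cluster and binds the hairpins when it does not. In unfed cells it was at 108, 107 and 101 CPM, with 85.0, 88.1 and 85.4 CPM in fed 3 h and 95.5, 99.5 and 93.2 CPM in fed 24 h libraries. The groups did not overlap, with fed 3 h lowest and fed 24 h between the others. Aco1 fell at 3 h (log2 -0.29, SE 0.0434, edgeR adjusted p = 5.37e-05) and rose from 3 h to 24 h (log2 0.16, SE 0.0434, edgeR adjusted p = 0.00519). At 24 h it was called lower than in unfed cells (log2 -0.13, SE 0.0432, edgeR adjusted p = 0.0328). That last call was lost in 7 of the 17 alternatives, among them leaving out the first or the second unfed library (adjusted p = 0.0824 and 0.111) or the first or the third fed 24 h library (0.123 and 0.143).

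Ireb2 (chr9:54863789-54912530, plus strand) encodes iron regulatory protein 2, which is controlled mainly by protein breakdown. It stood at 72.6, 68.9 and 72.8 CPM in unfed, 73.9, 73.2 and 70.3 CPM in fed 3 h and 68.9, 68.9 and 70.3 CPM in fed 24 h libraries. All groups overlapped. Its log2 differences were -0.04 for 24 h against unfed cells (edgeR adjusted p = 0.484), 0.02 for 3 h against unfed cells (0.715) and -0.06 for 24 h against 3 h (0.215), each with an SE of 0.0423 to 0.0425.

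**Figure D2:**
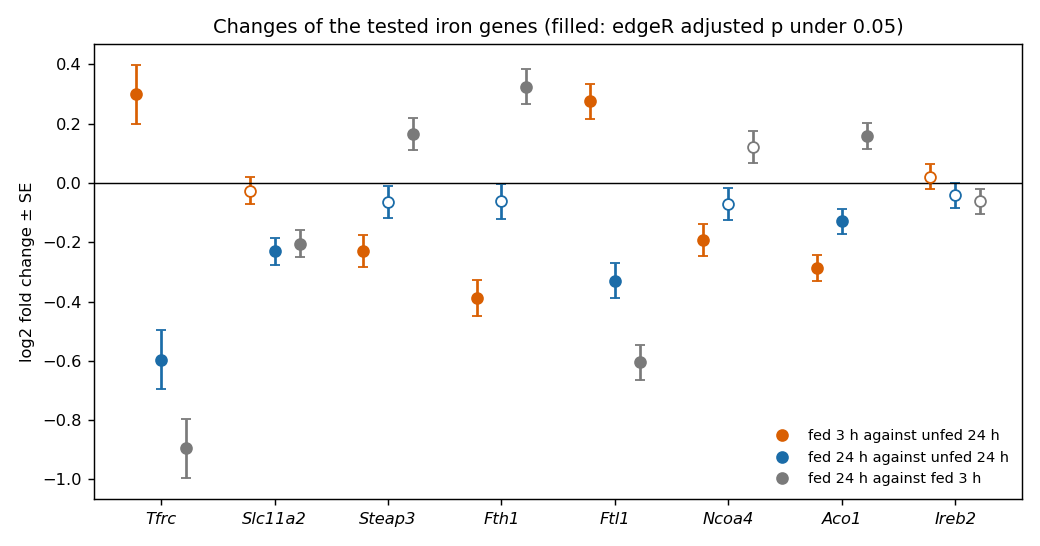
Log2 fold change (y axis) of the 8 tested members (x axis) in the 3 comparisons, with bars of 1 SE. Filled points were called at an adjusted p under 0.05 and open points were not. Tfrc runs from 0.30 at 3 h against unfed cells to -0.90 between 3 h and 24 h, whereas Ireb2 runs from -0.06 to 0.02.

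To compare members with each other, CPM was divided by gene length. With the length of all annotated exons joined, the unfed means were 1409 CPM per kb for Ftl1 and 1114 for Fth1. Steap3 (36.0), Aco1 (23.4), Tfrc (16.3), Slc11a2 (11.7), Ireb2 (7.54), Ncoa4 (4.88) and Slc40a1 (0.00409) followed. The order of the ferritin chains is not settled, because with the longest coding transcript Fth1 (2586 CPM per kb) was above Ftl1 (1951) in unfed cells. On joined exons Tfrc changed place with Aco1: it was under it in unfed cells (12.5 to 18.5 against 22.4 to 23.9 CPM per kb), overlapped it at 3 h (19.2 to 20.8 against 18.9 to 19.6) and was under it again at 24 h (10.5 to 11.2 against 20.7 to 22.1). At 24 h Tfrc came down to near Slc11a2 (9.71 to 10.4 CPM per kb on joined exons), and with the longest coding transcript their mean levels were 13.6 and 14.3.

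Ratios within a library need no scaling between libraries. For every 100 counts of Fth1, Tfrc had 1.85, 2.94 and 3.13 counts (unfed), 4.36, 4.17 and 4.09 (fed 3 h) and 1.78, 1.73 and 1.91 (fed 24 h). The fed 3 h libraries were above all others, while the first unfed library lay among the fed 24 h ones. The mean log2 ratio was higher at 3 h than in unfed cells by 0.71 (two-sided exact permutation p = 0.1, 0.15 adjusted over 3 comparisons). It was lower at 24 h than at 3 h by a difference of -1.22 (exact permutation p = 0.1, adjusted 0.15) and lower at 24 h than in unfed cells by -0.51 (exact permutation p = 0.2, adjusted 0.2). With 3 libraries against 3 this test cannot give a p below 0.1. The first unfed library bears on these values: without it they were 0.47 at 3 h and -0.75 at 24 h against unfed cells.

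The light to heavy chain ratio was added after the values were seen and is given with no test. There were 42.3, 55.3 and 49.9 counts of Ftl1 per 100 of Fth1 without feeding, 75.8, 79.2 and 77.2 after 3 h and 40.7, 39.7 and 41.6 after 24 h. The groups did not overlap, and the fed 3 h libraries were far above the rest.

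**Figure D3:**
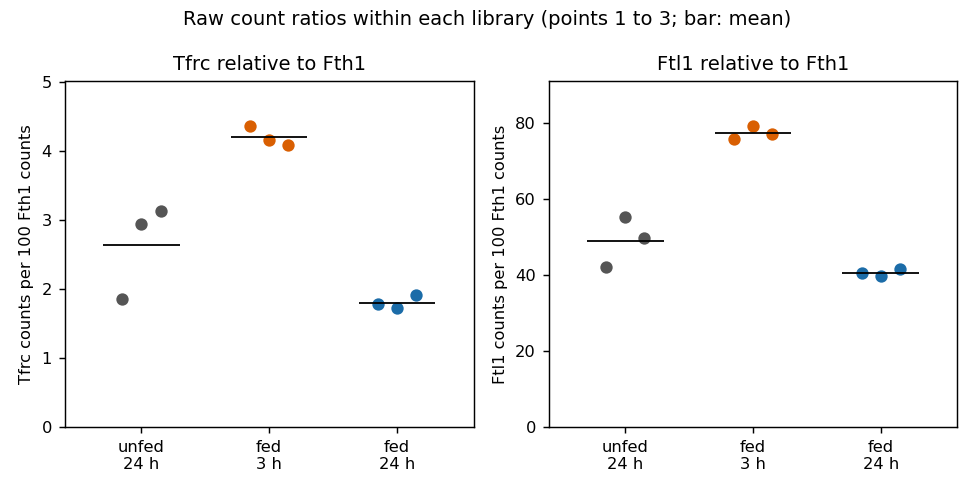
Counts of Tfrc (left) and of Ftl1 (right) per 100 counts of Fth1 in each library, by group; the lines are group means. Both ratios are highest in the 3 fed 3 h libraries, at 4.09 to 4.36 for Tfrc and 75.8 to 79.2 for Ftl1.

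Promoters were searched for 5 motifs on both strands in RefSeq sequences (GRCm38.p6) from 250 bases before to 50 bases after a start site, which matched 7 of the 9 members (all but Slc40a1 and Slc11a2). The core of the hypoxia response element, ACGTG, was present in Tfrc and Ncoa4, and in at least 1 promoter of 21.8% of all genes (19.6% of all promoters, since a gene can have several). The core of the antioxidant response element, TGACNNNGC, was present in Ncoa4 and in 14% of all genes (12.4% of promoters). The E-box CACGTG, which contains ACGTG (8.09% of genes, 7.15% of promoters), the cyclic AMP response element TGACGTCA (2.03% and 1.79%) and the AP-1 element TGANTCA (8.97% and 7.81%) had no match in the 7. The stretch around the Tfrc match, with the motif in capitals, is shown because Tfrc moved most (chr16:32608882-32608910, plus strand):
Tfrc promoter: ctcggtaggtgtACGTGcggaaggaagtg
A match is a description of the sequence only.

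The wider pathway was described with 8 lists of genes, by counts. They are to be read against the share of all tested genes that was called. It was 30.8% at 24 h against unfed cells (14.9% higher, 15.9% lower) and 50.6% at 3 h against unfed cells (25.1% higher, 25.5% lower). From 3 h to 24 h it was 60.9% (30.8% higher, 30.2% lower). Many lists lay near the share of their comparison, such as the haem genes at 3 h with 9 of 17. Nothing is called particular to a list. Of 17 other uptake and reduction genes 11 were tested. At 24 h against unfed cells 3 rose and 3 fell, at 3 h 2 rose and 4 fell, and from 3 h to 24 h 6 rose and 3 fell. Slc39a14, a zinc and iron importer, was at 178 ± 7.96 CPM without feeding, 205 ± 4.91 CPM after 3 h and 134 ± 4.69 CPM after 24 h (SD, n = 3). It rose at 3 h (log2 0.21, SE 0.0448) and fell at 24 h against unfed cells (log2 -0.40, SE 0.0451), in the same order as Tfrc and Ftl1. Slc48a1, a haem transporter of the endosome and lysosome, also had this order, with 258 ± 9.65, 325 ± 7.92 and 229 ± 8.85 CPM. Hfe, which binds transferrin receptor 1, ran the other way from 8.42 ± 0.980 in unfed to 4.85 ± 0.0892 in fed 3 h and 11.5 ± 0.473 CPM in fed 24 h cells. Its log2 difference from unfed cells was -0.80 at 3 h (SE 0.0921) and 0.45 at 24 h (SE 0.0850).

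Among 6 tested genes of 7 for iron chaperones and ferritin turnover, 1 rose and 2 fell at 24 h against unfed cells, 2 rose and 1 fell at 3 h, and 1 rose and 3 fell from 3 h to 24 h. Pcbp2, an iron chaperone that delivers iron to ferritin, fell from 3 h to 24 h (log2 -0.23, SE 0.0414), and Herc2, a ubiquitin ligase that acts on Ncoa4 protein, fell at 3 h (log2 -0.46, SE 0.0459). Of 14 genes for export and the hepcidin axis 7 were tested, and Hamp, which encodes hepcidin, had no counts. In this list 1 rose and 1 fell at 24 h against unfed cells, 2 rose and 1 fell at 3 h, and 1 rose and 2 fell from 3 h to 24 h. Cp, which encodes the ferroxidase ceruloplasmin, fell at 3 h (log2 -0.58, SE 0.0939) and was above the unfed level at 24 h (log2 0.72, SE 0.0870). Flvcr1, a transporter linked to haem export, rose at 3 h (log2 0.48, SE 0.0596) and fell at 24 h (log2 -0.43, SE 0.0613).

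Of the 8 regulators of iron genes, 1 rose and none fell at 24 h against unfed cells (1 fell at an unadjusted p under 0.05 in edgeR, 1 by DESeq2 and 0 by limma-voom). At 3 h none rose, against 25.1% of all genes (0 also at an unadjusted p under 0.05 in edgeR, by DESeq2 and by limma-voom), and 3 fell. From 3 h to 24 h 3 rose, 1 of which, Nfe2l2, was near the threshold (log2 0.12, edgeR adjusted p = 0.0487), and none fell (0 by the same 3 counts). Epas1 is a hypoxia-inducible factor known for an iron-responsive element in its message, though the strict pattern searched here had no match there. It went from 40.2 ± 3.94 CPM in unfed to 20.9 ± 1.5 in fed 3 h and 71.9 ± 4.92 in fed 24 h cells. Its log2 differences from unfed cells were -0.94 at 3 h (SE 0.0758) and 0.84 at 24 h (SE 0.0712). With Epas1, 4 of 5 other genes known for such an element were tested, and 2 rose and none fell at 24 h against unfed cells (0 fell at an unadjusted p under 0.05 in edgeR, by DESeq2 and by limma-voom). The rise of 1 of these 2, Cdc42bpa (log2 0.20, edgeR adjusted p = 0.0266), rests on single libraries. It was not called without the first unfed library (edgeR adjusted p = 0.078) or without the first or the third fed 24 h library (0.0833 and 0.119). In this list 1 rose and 1 fell at 3 h, and 1 rose and 1 fell from 3 h to 24 h.

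Haem genes were 17 tested of 19. At 24 h against unfed cells 1 rose and 3 fell, at 3 h 2 rose and 7 fell, and from 3 h to 24 h 10 rose and 4 fell. Hmox1, which opens haem and frees its iron, was at 113, 116 and 119 CPM in unfed, 335, 304 and 277 CPM in fed 3 h and 130, 125 and 128 CPM in fed 24 h libraries. It rose at 3 h by a log2 difference of 1.39 (SE 0.0576, edgeR adjusted p = 8.58e-11). The other gene of this list that rose at 3 h was Cpox, an enzyme of haem synthesis (log2 0.25, SE 0.0522). Uros, another enzyme of haem synthesis, fell from 7.29 to 5.09 CPM (log2 -0.52, SE 0.0839). Of 30 genes for mitochondrial iron import and iron-sulfur clusters 29 were tested. None rose at 24 h against unfed cells (1 at an unadjusted p under 0.05 in edgeR, 0 by DESeq2 and by limma-voom) and 6 fell, among them Glrx5, a mitochondrial glutaredoxin of cluster assembly (log2 -0.25, SE 0.0481). A further gene of these 6, Bola3, was just inside the threshold (edgeR adjusted p = 0.0499), and its call was lost in most alternatives. At 3 h 8 rose and 5 fell, and from 3 h to 24 h 4 rose and 12 fell. Slc25a37, mitoferrin 1, rose at 3 h (log2 0.40, SE 0.0717).

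For ferroptosis, a form of cell death driven by iron and lipid peroxides, 15 of 17 genes were tested. At 24 h against unfed cells 4 rose and 2 fell, at 3 h 7 rose and 4 fell, and from 3 h to 24 h 4 rose and 6 fell. Gclc, which makes the first step of glutathione synthesis, rose at 3 h from 39.9 ± 2.36 to 65.5 ± 1.73 CPM (log2 0.72, SE 0.0518), and Gpx4, which removes lipid peroxides, fell (log2 -0.45, SE 0.0576). The adjusted p of each gene named in these lists as rising or falling, from the fit of all 13568 genes, was at most 0.0487, Bola3 apart. Some list counts at 24 h against unfed cells rest on single libraries: without the first fed 24 h library 0 storage genes fell, and without the third unfed or the second fed 24 h library 0 ferroptosis genes fell.

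**Figure D4:**
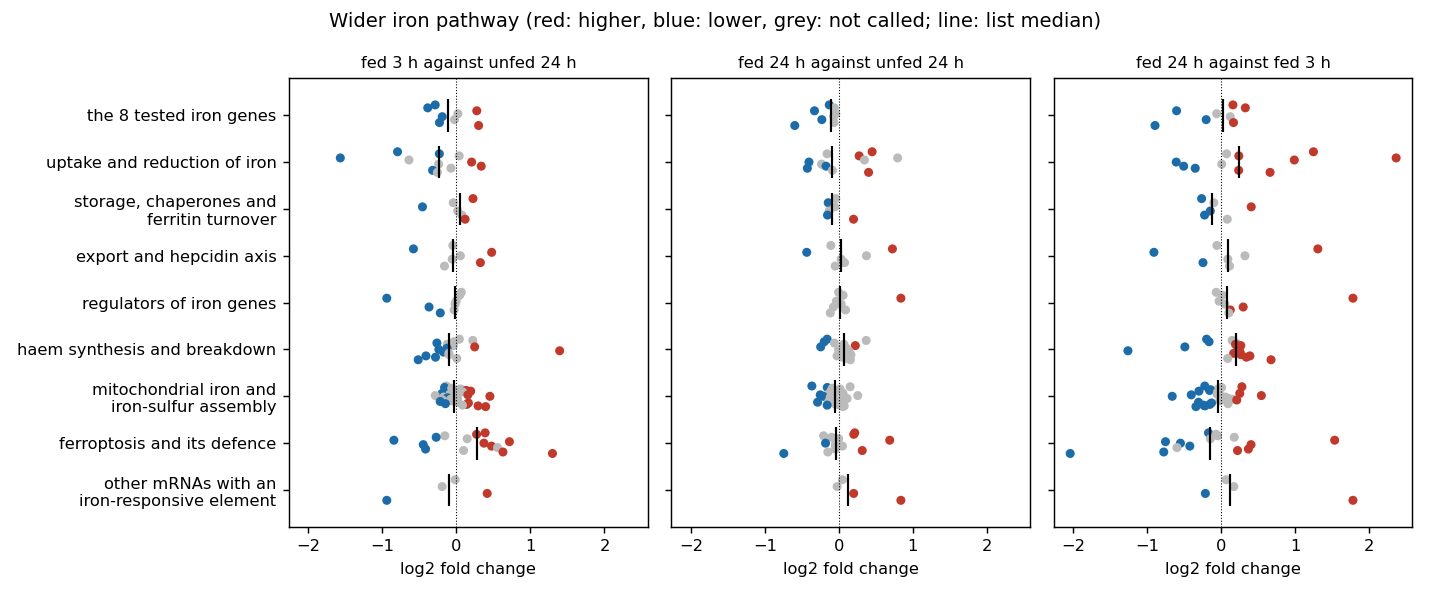
Log2 fold change of every tested gene of each list (points; red higher, blue lower, grey not called) in the 3 comparisons, with the list's median as a line. Points of most lists lie on both sides of 0 in each comparison, and the members' medians are -0.10, -0.11 and 0.03.

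The genes whose log2 CPM most resembled each called member over the 9 libraries were looked for among 9356 other genes. The libraries form 3 groups, so these values of Pearson's r mostly describe the pattern of 3 means. For Tfrc they were Phc2, Fam98a and Pop1 (r = 0.993, 0.990 and 0.989), and for Ftl1 they were Twnk, Polr1b and Ppp1r14b (0.996, 0.994 and 0.994). Fth1 was nearest to Mtch1, Slc39a1 and Tspan31 (0.992, 0.992 and 0.991), and Steap3 to Tmem98, Slc39a1 and Rab8a (0.985, 0.983 and 0.979), so Slc39a1 was near both. Slc11a2 was nearest to Zmpste24, Fscn1 and Psat1 (0.985, 0.983 and 0.983), Aco1 to Pdp2, Tnfaip8l1 and Capn10 (0.990, 0.979 and 0.979) and Ncoa4 to Tlr6, Ston1 and Napepld (0.966, 0.961 and 0.954).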

How the data were processed

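The authors deposited 1 table of raw read counts per mouse gene symbol, 1 column per library. The submitters' processing notes name MultiQC 1.7, featureCounts of Subread 1.6.4 and STAR 2.7.0f, with the builds GRCm38.p6 and GRCh38.p13. Not given in the sources used here are how the human build was used, the strand setting and the treatment of reads with several matches. Per the labels' protocols the library kit was either a stranded mRNA kit or a low-input cDNA kit, so strand is unresolved. Genes overlapping a member on the other strand had at most 25 counts in all. They were Gm10252, over 355 exon bases of Ftl1, and Gm5475, over 402 exon bases of Slc11a2. On the same strand Gm22133 overlapped 109 exon bases of Ftl1 and had 0 counts. Reads in shared bases that were assigned to neither gene would not show in these counts.

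The 9 libraries entered 1 fit in edgeR 4.0.16 (R 4.3.3) with TMM factors, filterByExpr and group as the only term. Benjamini-Hochberg adjustment ran over 13568 genes. Replicates differed beyond counting error (chi-square per degree of freedom 5.53 to 16.5), so counting error alone understates their spread. Each library was entered as 1 sample, although separate cultures are not stated. The 17 alternatives per comparison were DESeq2 size factors, the DESeq2 1.42.0 Wald test, limma-voom 3.58.1, no filter and a stricter filter on low counts, a replicate block, a fit of 6 libraries, leaving out each library and an adjusted p under 0.01. The labels give no batch or date.

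The members and gene lists were chosen with earlier results of these data known. Named list genes are among the 3 largest called changes per list, direction and comparison with a mean of at least 5 CPM. Hamp is named besides, for its 0 counts, and the Ftl1 to Fth1 ratio was added after the values were seen. Older symbols in the lists were matched through RefSeq synonyms once the table was read.

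The fits were tested on simulated counts for the same 13568 genes, 200 of them changed. The first pass marks, recovery over 80% of genes changed by 1 on the log2 scale and under 10% false calls, were missed and were then revised to over 90% of genes at 5 CPM or more and under 15%. For 24 h against unfed, 3 h against unfed and 24 h against 3 h, the edgeR test recovered 83%, 80% and 83% of all genes changed by 1, and 98.5%, 100% and 100% of those at 5 CPM or more. Of genes changed by 0.5 it recovered 73%, 72% and 74%, and 98.6%, 97.1% and 98.6% of those at 5 CPM or more. Its false calls were 7.69%, 7.32% and 7.65% of all calls, above the nominal 5%, and DESeq2 reached 11.2% for 3 h against unfed. Most called member differences were smaller than 0.5, and far more than 200 genes were called in the data. The simulated spread was that fitted by edgeR itself. These rates therefore do not measure recovery or false calls in the results above.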

Additional observations from a re-analysis of the deposited data

How the results depend on the processing

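Across 408 combinations of member, comparison and alternative, 390 kept direction and side of the threshold, 13 lost a call, 4 gained one and 1, of an uncalled difference, turned sign. A further 2550 combinations covered every other gene that met the rule for naming list genes, many of them not named above. Of these, 2416 kept both, 86 lost a call, 32 gained one and 16, all of uncalled differences, turned sign. The causes were not tested. Members called higher at 3 h against unfed cells were 1 in place of 2, Tfrc being lost, under the DESeq2 Wald test, at an adjusted p under 0.01 and without the first fed 3 h library (range without single libraries 1 to 2). Members called lower at 24 h against unfed cells were 3 to 4 without single libraries, and members called higher from 3 h to 24 h 2 to 4. Over all genes, 24 h against unfed cells had 2017 higher and 2159 lower, 1156 and 1216 at an adjusted p under 0.01, and 1488 to 2184 and 1426 to 2241 without single libraries (1426 without the first fed 24 h library). The Tfrc to Fth1 log2 difference ranged from -0.75 to -0.37 (24 h against unfed), 0.47 to 0.85 (3 h against unfed) and -1.26 to -1.19 (24 h against 3 h). Same-numbered libraries did not deviate together (r -0.163 to 0.0578, against -0.0971 to 0.104 for different numbers). This check cannot exclude that the numbers pair samples. With the replicate block the members called stayed at 0 higher and 4 lower, 2 and 4, and 3 and 3. Without single libraries, the log2 differences that changed sign ranged, at 24 h against unfed cells, for Bola2 from -0.10 to 0.0064, Gclc from -0.070 to 0.013, Gpx4 from -0.086 to 0.0092, Lpcat3 from -0.079 to 0.0094, Lyrm4 from -0.040 to 0.060, Slc25a37 from -0.0083 to 0.11 and Slc25a38 from -0.075 to 0.017. At 3 h against unfed cells the ranges were -0.082 to 0.019 for Blvrb, -0.0058 to 0.043 for Ireb2, -0.071 to 0.074 for Ndor1 and -0.016 to 0.070 for Pcbp1, and for 24 h against 3 h -0.026 to 0.033 for Bola3. Among the members, depth limits Slc40a1, with at most 4 counts in a library.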
